A study of Mus musculus with 9 samples.

Results

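The miRNAs described here are the guide strands of the miR-23, miR-27 and miR-24 clusters, chosen by name from the table of small RNA sequencing values as miR-23a-3p, miR-27a-3p, miR-23b-3p, miR-27b-3p and miR-24-3p. All 5 were found among the 1251 miRNAs of the table, and all 5 were above its lowest value in each of the 9 libraries. In BAT they had lower values than in both white depots. MiR-27b-3p was the most abundant of them in every library, and it was the member that passed the test between VAT and SAT. The libraries came from epididymal (VAT), inguinal (SAT) and interscapular brown (BAT) fat of male C57BL/6J mice, with 3 libraries per depot. The mice were 5 to 6 weeks old at the start, then ate a high fat diet (HFD) for 11 weeks, and were fasted for 4 hours before they were killed. The diet drew 45% of its energy from fat, 20% from protein and 35% from carbohydrate. No low fat group was sequenced, so depots were compared within the HFD alone, and each sample was a whole piece of tissue with all the cell types that it held.

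A miRNA cluster is a stretch of DNA that gives a single long primary transcript, from which several hairpins are cut. Each hairpin yields a guide strand, which is loaded into the silencing complex, and a passenger strand, which is mostly degraded. Bases 2 to 8 of the guide, the seed, pair with target mRNAs. MiR-27 is known as an inhibitor of fat cell formation that acts on Pparg, the main transcription factor of adipocyte differentiation, and on Prdm16, a driver of the brown fat program. MiR-23 and miR-24 are known from endothelial, muscle and blood cells, where miR-24 restrains the cell cycle.

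The mature sequences are shown because they define which values can be told apart. RefSeq (GRCm38.p6) gave a sequence for 4 of the 5 members, and miR-23b-3p was not among them. The seed is in capitals, and each sequence runs 5′ to 3′.
miR-23a-3p: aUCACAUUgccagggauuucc
miR-27a-3p: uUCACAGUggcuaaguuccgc
miR-27b-3p: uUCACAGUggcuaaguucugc
miR-24-3p: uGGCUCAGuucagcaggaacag
MiR-27a-3p and miR-27b-3p shared their seed and 20 of 21 bases. The substitution was C19U, with the base of miR-27a-3p first and positions counted from 1 at the 5′ end. A read that ends before this base matches both, and the authors shared reads with several places in proportion, so the division between miR-27a-3p and miR-27b-3p is uncertain for such reads. Whether reads match both miR-23a-3p and miR-23b-3p could not be judged, as the latter had no sequence here. No other mature miRNA of RefSeq, of 1679, had the seed of miR-27. The seed letters were also bases 1 to 7 of miR-128-3p, which is printed to show this shift by 1 base.
miR-128-3p: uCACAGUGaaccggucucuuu
The seed of miR-24-3p was shared by miR-5124b, miR-6369, miR-6410 and miR-6413, and these 4 were at the lowest value in all libraries.

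The first cluster lies on the plus strand of chromosome 8 of GRCm38, where the hairpins of Mir23a, Mir27a and Mir24-2 follow each other within 404 bases. Their guide strands are at chr8:84208563-84208583 for miR-23a-3p, chr8:84208727-84208747 for miR-27a-3p and chr8:84208875-84208896 for miR-24-3p. In GENCODE M21, Mir23a and Mir27a overlap no other gene, and the end of Mir24-2 overlaps the exon of the lincRNA Gm26532. The other cluster lies on the plus strand of chromosome 13, where Mir23b, Mir27b and Mir24-1 span 792 bases within the gene 2010111I01Rik. Mir23b (chr13:63300484-63300557) is intronic to all of the transcripts that span it, Mir27b (63300712 to 63300784) overlaps an exon of 1 transcript and Mir24-1 (63301208 to 63301275) overlaps exons of 4. On the opposite strand, all 3 lie within Fancc. MiR-24-3p arises from both clusters with the same sequence, so its value cannot be divided between them.

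The deposited values are on a log2 scale, from 3.32 (log2 of 10) to 18.67 in each library. The values at a given high rank were nearly the same in all libraries (within 0.05 for 80 of the top 100), so a value mostly reports a rank within its library. Depth is unknown, and error was judged from how far the 3 libraries of each depot lay apart. The miRNAs listed as brown fat markers were chosen with earlier results of these data known, so they are no independent check. Of these markers, 4 of 5 were lower in both white depots, where 26.8% of all tested miRNAs were lower in VAT and 18.1% in SAT. Their summed levels were 17.36 to 18.84 in BAT, 15.16 to 15.23 in SAT and 15.67 to 16.27 in VAT, mostly from miR-378a-3p. Some libraries stood apart in miR-133a-3p, a miRNA of striated muscle, which was 18.67 in BAT 20 and 17.20 in BAT 15 and VAT 20, against 9.85 to 12.59 in the other 6 libraries. Results without these 3 libraries are given beside the muscle markers. VAT 14 stood apart from the other VAT libraries in the miR-196 markers of posterior white fat, and calls that were lost without it are given with each member. The numbers of the libraries are those of the sample titles.

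MiR-27b-3p had the highest level of the 5, at 13.91 ± 0.06 in BAT, 14.36 ± 0.15 in SAT and 15.26 ± 0.22 in VAT (log2 value, SD, n = 3 each). It ranked 28 to 29 in the BAT libraries, 20 to 23 in SAT and 14 to 17 in VAT. MiR-24-3p had the lowest, at 8.94 ± 0.44 in BAT, 10.36 ± 0.04 in SAT and 10.75 ± 0.11 in VAT (SD, n = 3 each). MiR-23a-3p came after miR-27b-3p in every library. In BAT its range of 11.48 to 13.18 overlapped those of miR-23b-3p and miR-27a-3p, while in SAT and VAT it lay above both. The ranges of miR-23b-3p and miR-27a-3p overlapped in BAT and VAT and touched at 12.81 in SAT, there in different libraries. Within each SAT library miR-23b-3p lay above miR-27a-3p, and the order was reversed only in BAT 20 and VAT 14. The printed sequences are 21 or 22 bases long, and the values are not scaled by length.

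**Figure D1:**
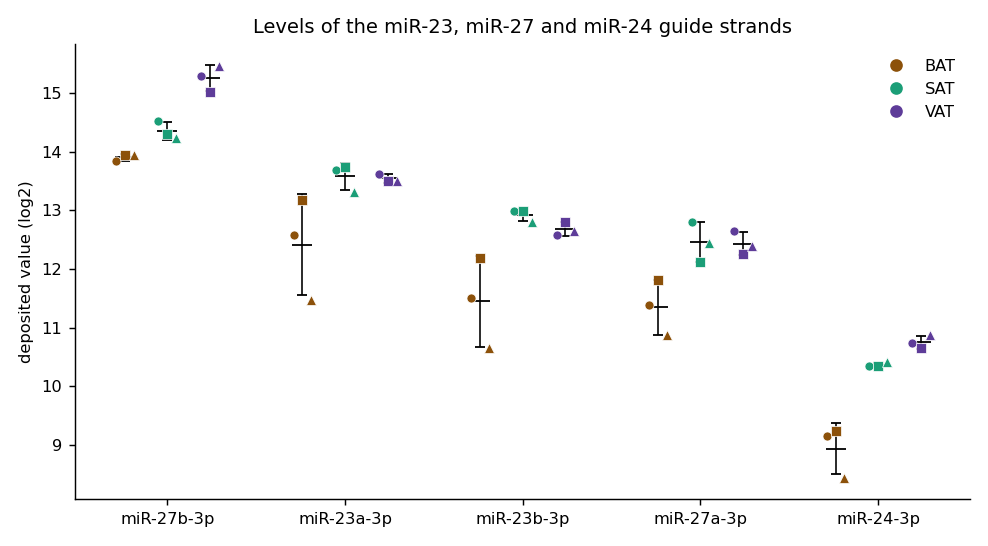
Deposited log2 values (vertical axis) of the 5 guide strands in the 3 BAT, 3 SAT and 3 VAT libraries, with circle, square and triangle for the libraries of a depot in rising number, and the mean ± SD. Each BAT library lies below every SAT and VAT library of the same miRNA, and BAT 20 (triangle) is the lowest BAT library of 4 of the 5.

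For each pair of depots, the 343 miRNAs that exceeded the lowest value in 3 or more libraries were tested with limma's moderated test (two-sided, Benjamini-Hochberg over all 343). In VAT/BAT, 4 of the 5 members were higher in VAT at an adjusted p under 0.05 and none was lower, where 66.2% of all tested miRNAs passed, 39.4% as higher and 26.8% as lower. In SAT/BAT the same count was 4 of 5 higher in SAT, where 40.5% of all tested passed and 22.4% were higher. The members had a median log2 fold change of 1.23 against BAT in VAT and 1.17 in SAT, where all tested miRNAs had 0.40 and 0.26. For all 5 members the libraries of either white depot lay above those of BAT without overlap, which held for 44.3% of the tested miRNAs in VAT/BAT (72% in either direction) and 31.5% in SAT/BAT (52.5% in either direction). At the thresholds of the study, which use p without adjustment and a minimum fold change, limma's test passed 5 members in VAT/BAT and 4 in SAT/BAT, where 68.8% and 49.9% of all tested passed, 41.4% and 28.6% as higher. Without moderation, as the study tested, 3 members passed these thresholds in VAT/BAT and 4 in SAT/BAT, where 217 and 158 of the 343 did. Both comparisons use the same 3 BAT libraries, so they are not independent of each other. In whole tissue, fewer cells of a type and less RNA per cell cannot be told apart.

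MiR-27b-3p had log2 values of 13.84, 13.94 and 13.94 in the BAT libraries 12, 15 and 20. It had 14.52, 14.31 and 14.24 in SAT 14, 19 and 20, and 15.30, 15.02 and 15.47 in VAT 14, 17 and 20. The BAT libraries were nearly alike, those of SAT lay somewhat above them, and those of VAT lay above all the others. VAT exceeded BAT by 1.35 (SE 0.22, adjusted p = 0.00242), or 2.56-fold. SAT exceeded BAT by 0.45 (SE 0.11, adjusted p = 0.0273), or 1.36-fold. The call in SAT/BAT was lost without BAT 12, BAT 15, BAT 20 or SAT 19 (adjusted p = 0.0853, 0.0591, 0.0502 and 0.0624), and with all 9 libraries in a common fit (adjusted p = 0.102). In all, 12 of 17 alternatives ended it, and over all 17 the adjusted p ran from 0.0189 to 0.580.

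MiR-27a-3p, which has the same seed, was less abundant and had another pattern. Its log2 values were 11.38, 11.81 and 10.87 in BAT 12, 15 and 20. The SAT libraries had 12.81, 12.12 and 12.45, and the VAT libraries had 12.65, 12.25 and 12.40. SAT and VAT libraries were intermixed, and both lay above BAT. On the log2 scale VAT exceeded BAT by 1.08 (SE 0.31, adjusted p = 0.0212), and SAT did so by 1.11 (SE 0.31, adjusted p = 0.0467). In VAT/BAT the adjusted p was 0.0540 without BAT 12, 0.0666 without VAT 14 and 0.0564 without VAT 20. In SAT/BAT it was 0.114 without BAT 12, 0.0821 without BAT 20, 0.123 without SAT 14, 0.0608 without SAT 19 and 0.122 without SAT 20, and 10 of 17 alternatives ended the call.

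MiR-23b-3p, the neighbour of miR-27b-3p on chromosome 13, had log2 values of 11.51, 12.20 and 10.65 in BAT 12, 15 and 20. The SAT libraries had 12.98, 12.98 and 12.81, and those of VAT had 12.59, 12.81 and 12.65. The white depots were close to each other and the BAT libraries were spread, with BAT 20 lowest. The fit put VAT above BAT by 1.23 (log2, SE 0.41, adjusted p = 0.0384), and it put SAT above BAT by 1.47 (SE 0.42, adjusted p = 0.0467). The call in VAT/BAT was lost without BAT 12, VAT 14, VAT 17 or VAT 20 (adjusted p = 0.0817, 0.0954, 0.110 and 0.104), and that in SAT/BAT without BAT 12, SAT 14, SAT 19 or SAT 20 (adjusted p = 0.113, 0.125, 0.124 and 0.116).

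MiR-23a-3p, at the head of the cluster on chromosome 8, did not pass the threshold in any comparison. It had log2 values of 12.59, 13.18 and 11.48 in BAT 12, 15 and 20, of 13.69, 13.74 and 13.32 in SAT, and of 13.63, 13.51 and 13.51 in VAT. BAT was below the white depots here as well, but its 3 libraries differed by 1.70. VAT minus BAT was 1.13 (log2, 95% interval 0.05 to 2.22, adjusted p = 0.0626), and SAT minus BAT was 1.17 (95% interval -0.08 to 2.41, adjusted p = 0.116). Single BAT libraries moved the size. Without BAT 15 the VAT/BAT difference was 1.52 and passed (adjusted p = 0.0202), while without BAT 20 it was 0.66 (adjusted p = 0.0605), and that of SAT/BAT was 0.70 (adjusted p = 0.108).

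MiR-24-3p had the largest difference of the 5 in VAT/BAT. Its log2 values were 9.15, 9.23 and 8.43 in BAT 12, 15 and 20, then 10.34, 10.34 and 10.41 for the SAT libraries and 10.74, 10.65 and 10.87 for those of VAT. The 3 depots did not overlap, in the order BAT, SAT, VAT. VAT exceeded BAT 3.52-fold (log2 difference 1.81, SE 0.29, adjusted p = 0.00209), and SAT exceeded BAT 2.69-fold (log2 difference 1.43, SE 0.24, adjusted p = 0.00971). Both calls held with each library left out in turn, with adjusted p up to 0.0132 in VAT/BAT and up to 0.0395 in SAT/BAT, and the latter was lost without the filter on low values (adjusted p = 0.0701).

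Between the white depots, 1 of the 5 members passed the threshold in VAT/SAT, where 16% of the tested miRNAs passed, 8.45% as higher in VAT and 7.58% as lower. This was miR-27b-3p, 1.87-fold higher in VAT (log2 difference 0.91, SE 0.16, adjusted p = 0.0276). The call was lost without SAT 19, SAT 20, VAT 14 or VAT 20 (adjusted p = 0.0707, 0.0685, 0.0718 and 0.0709). For miR-24-3p, VAT minus SAT was 0.39 (log2, SE 0.09, adjusted p = 0.0545). The libraries of both miRNAs did not overlap, with VAT higher, as for 22.4% of the tested miRNAs (39.4% in either direction). At the thresholds of the study both passed, where 35.6% of all tested did, 20.7% as higher. For the others the 95% intervals of the log2 fold change were -0.40 to 0.34 for miR-23a-3p, -0.59 to 0.54 for miR-27a-3p and -0.52 to 0.03 for miR-23b-3p, and their libraries overlapped.

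**Figure D2:**
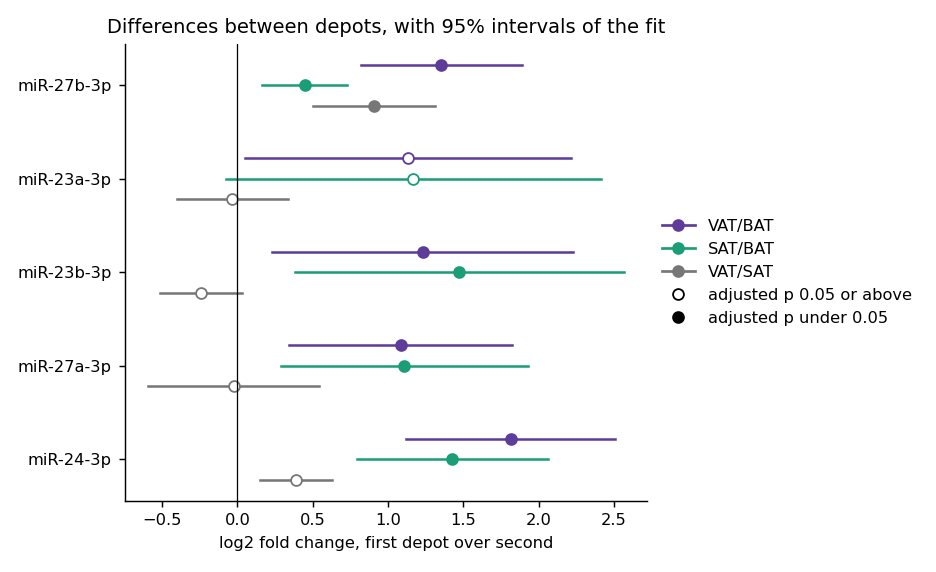
Log2 fold change (horizontal axis) of each guide strand in VAT/BAT, SAT/BAT and VAT/SAT, with the 95% interval of limma's fit and filled points where the adjusted p is under 0.05. In VAT/BAT the values run from 1.08 to 1.81, while in VAT/SAT miR-27b-3p at 0.91 is the only filled point.

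Because the members of a cluster come from a common transcript, their levels were also compared within each library. A scaling factor of the library drops out of such differences, but other effects of values that mostly report ranks need not. Of 6 such differences, none passed an exact permutation test over the 1680 assignments of the 9 libraries to depots after adjustment over the 6 (the smallest unadjusted p that it allows is 0.00357). Within the cluster on chromosome 8, miR-23a-3p exceeded miR-27a-3p by 1.06 ± 0.40 in BAT, 1.12 ± 0.43 in SAT and 1.11 ± 0.14 in VAT (log2 difference, SD, n = 3 each, exact permutation p = 0.982, adjusted 0.982). Within the cluster on chromosome 13, miR-23b-3p minus miR-27b-3p was -1.54 to -1.32 in SAT, -2.81 to -2.21 in VAT and -3.29 to -1.75 in BAT (exact permutation p = 0.0821, adjusted 0.123). SAT did not overlap the other depots in this difference, and the range of BAT took in that of VAT.

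The miR-27 pair differed in a like way, with miR-27a-3p minus miR-27b-3p at -2.19 to -1.71 in SAT, -3.07 to -2.14 in BAT and -3.07 to -2.64 in VAT (exact permutation p = 0.0536, adjusted 0.107). SAT and VAT did not overlap, and BAT overlapped both. On the unlogged scale, with the lowest value subtracted, miR-27b-3p made up 85.2% ± 4.0 of the miR-27 pair in BAT, 78.7% ± 2.9 in SAT and 87.6% ± 1.6 in VAT (SD, n = 3 each). The pair together took 0.751% ± 0.045 of the summed unlogged values of all miRNAs in BAT, 1.11% ± 0.14 in SAT and 1.88% ± 0.27 in VAT (SD, n = 3 each). The miR-23 pair was more even, although reads shared within it could not be judged. MiR-23a-3p exceeded miR-23b-3p by 0.96 ± 0.13 in BAT, 0.66 ± 0.13 in SAT and 0.86 ± 0.17 in VAT (SD, n = 3 each, exact permutation p = 0.104, adjusted 0.124), and it made up 58.7% to 67.8% of the pair in the 9 libraries.

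MiR-24-3p minus the mean of its partners on chromosome 8 averaged -2.95 ± 0.28 in BAT, -2.66 ± 0.22 in SAT and -2.24 ± 0.16 in VAT (log2 difference, SD, n = 3 each, exact permutation p = 0.0179, adjusted 0.0643). Against its partners on chromosome 13 the difference averaged -3.74 ± 0.19 in BAT, -3.28 ± 0.15 in SAT and -3.22 ± 0.04 in VAT (SD, n = 3 each, exact permutation p = 0.0214, adjusted 0.0643). In the latter, miR-24-3p lay farther below its partners in each BAT library than in each library of the white depots. Without BAT 20, the adjusted exact permutation p was 0.0429 for both differences of miR-24-3p, for miR-27a-3p against miR-27b-3p and for miR-23b-3p against miR-27b-3p. With each of the other 8 libraries left out, the adjusted exact permutation p of these 4 differences was 0.0643 to 0.225.

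**Figure D3:**
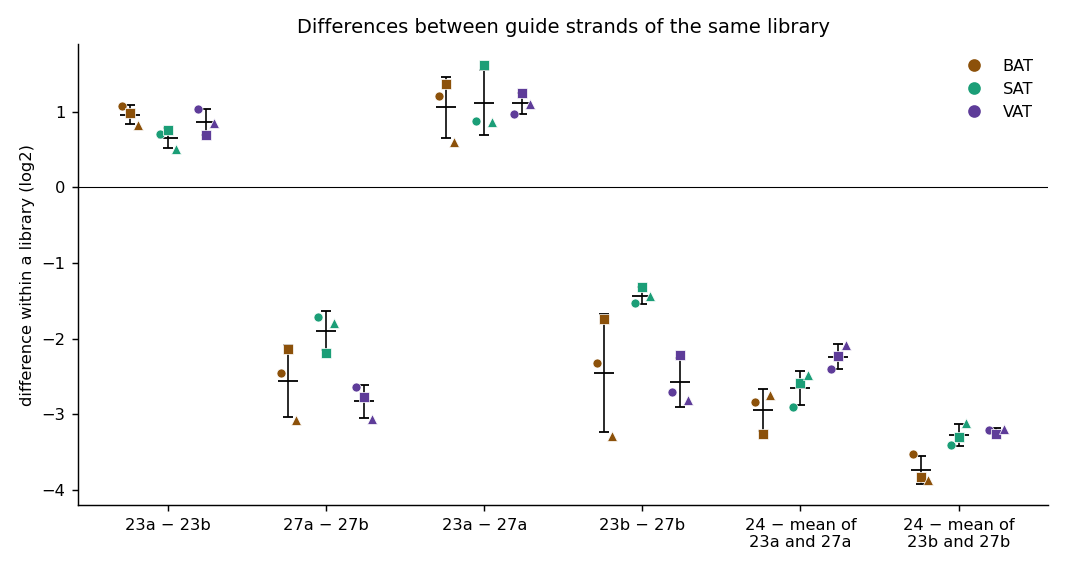
Log2 difference between guide strands of the same library (vertical axis) for 6 pairs or groups, by depot, with circle, square and triangle for the libraries in rising number and the mean ± SD. The difference of miR-23a-3p and miR-27a-3p is centred between 1.06 and 1.12 in each depot, while miR-23b-3p less miR-27b-3p separates SAT (-1.54 to -1.32) from VAT (-2.81 to -2.21).

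Of the 6 passenger strands of these hairpins, miR-23a-5p, miR-23b-5p and miR-24-1-5p were at the lowest value in all libraries, as were the 3 miR-3074 miRNAs from the strand opposite to miR-24. The other 3 were tested. MiR-27a-5p, the passenger of miR-27a-3p, moved against its guide. It had log2 values of 6.69, 7.02 and 6.47 in BAT 12, 15 and 20, of 4.55, 5.60 and 4.64 in SAT, and of 5.60, 6.10 and 5.85 in VAT, so each BAT library lay above the white depots. VAT minus BAT was -0.88 (log2, SE 0.26, adjusted p = 0.0253), and SAT minus BAT was -1.80 (SE 0.35, adjusted p = 0.0138), where 18.1% of the tested miRNAs were lower in SAT. Libraries that did not overlap, with BAT higher, were found for 27.7% of the tested miRNAs in VAT/BAT and 21% in SAT/BAT. The guide exceeded its passenger by 4.62 ± 0.20 in BAT, 6.59 ± 0.45 in VAT and 7.53 ± 0.90 in SAT (log2 difference, SD, n = 3 each). In SAT 14 and SAT 20 the passenger was near the lowest value of 3.32, so the size in SAT depends on the constant that was added. Passenger strands were not fitted under the alternative settings. An exact permutation test of this difference over the 3 depots, added after the values were seen, gave p = 0.0107 (adjusted 0.0214 over the 2 hairpins so tested).

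MiR-27b-5p had the order of its guide. It was at the lowest value in BAT 12 and BAT 20 and at 4.66 in BAT 15, at 5.60 to 5.94 in SAT and at 6.47 to 7.01 in VAT. The VAT libraries were above those of SAT, and both were above BAT. VAT minus SAT was 0.96 (log2, adjusted p = 0.0305). VAT minus BAT was 2.96 (adjusted p = 0.00147), and SAT also passed against BAT (adjusted p = 0.0190), although 2 of the 3 BAT libraries were at the lowest value, so that the size of either difference depends on the constant that was added. MiR-24-2-5p, which marks the chromosome 8 copy of miR-24, was 7.11 to 8.23 in BAT, 8.19 to 8.86 in SAT and 9.03 to 9.25 in VAT. It was higher in VAT than in BAT by 1.66 (log2, SE 0.36, adjusted p = 0.00735), while SAT and BAT overlapped (adjusted p = 0.101). MiR-24-3p exceeded miR-24-2-5p by 1.44 ± 0.51 in BAT, 1.86 ± 0.37 in SAT and 1.59 ± 0.13 in VAT (SD, n = 3 each, exact permutation p = 0.418).

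**Figure D4:**
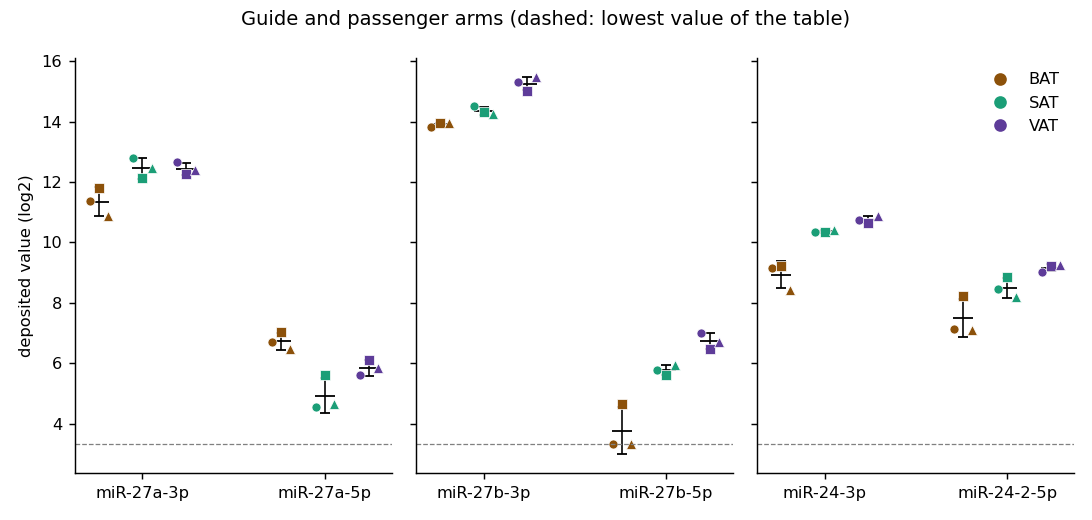
Log2 values (vertical axis) of 3 guide strands, each beside a passenger strand of its hairpin, by depot, with circle, square and triangle for the libraries in rising number and the mean ± SD. MiR-27a-5p is highest in BAT (6.47 to 7.02) where miR-27a-3p is lowest, while miR-27b-5p and miR-24-2-5p are lowest in BAT like their guides by depot mean.

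Markers of other cell types also differed between depots, and not all in the same direction. Against BAT, 39.4% of all tested miRNAs were higher and 26.8% lower in VAT, with 22.4% higher and 18.1% lower in SAT. Both strands of miR-126, the miRNA of endothelial cells, were higher in both white depots at an adjusted p under 0.05 (2 of 2 in each comparison), and their summed log2 level was 11.53 to 12.23 in BAT, 13.27 to 13.61 in SAT and 13.54 to 13.64 in VAT. MiR-126-3p exceeded BAT by 1.98 in VAT (log2, adjusted p = 0.00376) and by 1.96 in SAT (adjusted p = 0.0138), and in BAT 20 it was at 10.34, the lowest of the 9 libraries. Of the 6 myeloid markers, 5 were tested, and 5 were higher in VAT and 1 in SAT than in BAT. Their summed level was 6.79 to 7.38 in BAT, 9.99 to 12.43 in SAT and 11.36 to 11.60 in VAT. In BAT, the myeloid miRNAs miR-223-3p, miR-142-3p and miR-511-3p were at the lowest value in all 3 libraries, so they could not be lower in a white depot. MiR-155-5p was at the lowest value in all 9 libraries. Of the 3 red cell markers, 2 were tested, with 1 higher and 1 lower in VAT than in BAT, 1 lower in SAT than in BAT, and miR-144-3p at the lowest value everywhere. Their summed level was 17.68 in each BAT library, 14.86 to 15.28 in SAT and 14.94 to 15.87 in VAT, and it was nearly all miR-486-5p, which is also found in muscle and had 17.68 in each BAT library. The other, miR-451a, had the opposite order, with 8.82 to 9.71 in BAT, 9.93 to 10.38 in SAT and 11.18 to 11.81 in VAT. Both miR-196 markers of posterior white fat were higher in SAT than in BAT and 1 was higher in VAT, with miR-196a-5p at the lowest value in all BAT libraries. Their libraries were uneven. MiR-196a-5p was 10.53 to 10.93 in SAT and 9.57 and 9.16 in VAT 17 and VAT 20, but 3.96 in VAT 14. MiR-196b-5p was 8.86 to 9.57 in SAT and 8.16 and 8.21 in VAT 17 and VAT 20, but at the lowest value in VAT 14, and in BAT it was at the lowest value except for 7.55 in BAT 20. The part of endothelial, myeloid and red cells in the values of the 5 members was not tested.

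Of the 6 striated muscle markers, 3 were tested, none passed the threshold between depots, and miR-208b-3p and miR-499-5p were at the lowest value everywhere. MiR-1a-3p did not follow miR-133a-3p. It was at 7.38 in BAT 20, at 3.83 in VAT 20 and at the lowest value in BAT 15 and all other libraries. The summed level of the 6 markers was 10.09, 17.21 and 18.68 in BAT 12, 15 and 20, 9.84 to 10.78 in SAT, and 9.84, 12.59 and 17.21 in VAT 14, 17 and 20. It was nearly all miR-133a-3p. Of the BAT libraries, BAT 15 had the highest and BAT 20 the lowest value of miR-23a-3p, miR-23b-3p, miR-27a-3p and miR-24-3p. The part of muscle in these values was not tested. With BAT 15, BAT 20 and VAT 20 left out and the other 6 libraries in a common fit, chosen after the data were seen, 4 of the 5 members were higher in VAT than in BAT, where 158 of the 343 tested miRNAs passed in either direction. They were miR-23a-3p, miR-23b-3p, miR-24-3p and miR-27b-3p, with log2 fold changes of 0.98, 1.18, 1.55 and 1.32 and a single BAT library that is assumed to vary like the others. In SAT/BAT, 3 passed in that fit, namely miR-23a-3p, miR-23b-3p and miR-24-3p, where 146 of the 343 did.

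Over the 9 libraries, the tested miRNAs with the pattern most like that of each member were found by Pearson's r of the log2 values, members and their hairpins left out. For miR-23a-3p they were miR-132-3p (r = 0.96), miR-126-3p (0.95) and miR-326-3p (0.94), and for miR-23b-3p they were miR-99b-3p (0.98), miR-126-3p (0.96) and miR-25-3p (0.96). For miR-27a-3p they were miR-322-5p (r = 0.95), miR-195a-5p (0.94) and miR-497-5p (0.94). For miR-24-3p they were miR-34c-5p (r = 0.99), miR-26a-5p (0.99) and miR-532-5p (0.99). MiR-27b-3p had other companions, miR-15b-3p (r = 0.95), miR-15a-5p (0.95) and miR-511-3p (0.93). The libraries of a depot lie close together, so these values mostly follow the depots, and they are given without a test. After the depot means were subtracted, the highest of these r was 0.98, between miR-23a-3p and miR-126-3p, and the lowest was -0.34, between miR-27b-3p and miR-15a-5p. Others were nearly as high, with 0.97 for miR-23b-3p and miR-99b-3p, 0.96 for miR-24-3p and miR-532-5p, and 0.94 for miR-23a-3p and miR-132-3p. MiR-23a-3p ranged over 1.70 in BAT, 0.42 in SAT and 0.12 in VAT, so its r after this step rests mostly on the BAT libraries. Among the members, r was 0.97 between miR-23a-3p and miR-23b-3p, which lie on different chromosomes, and 0.54 between the neighbours miR-23b-3p and miR-27b-3p. Whether shared reads tie the values of miR-23a-3p and miR-23b-3p could not be judged without a sequence of miR-23b-3p.

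Other miRNAs with a reported part in adipogenesis gave the setting for miR-27. For the counts against BAT, 39.4% of all tested miRNAs were higher and 26.8% lower in VAT, with 22.4% higher and 18.1% lower in SAT. Of 9 others reported as inhibitors, 7 were tested, and at an adjusted p under 0.05 against BAT 5 were higher and none lower in VAT, with 3 higher and none lower in SAT. MiR-130b-3p and miR-224-5p, both higher in VAT, were at the lowest value in all BAT libraries, so they could not be lower in a white depot. Among these inhibitors, miR-130a-3p, which like miR-27 acts on Pparg, was higher by 2.80 in VAT (log2, adjusted p = 0.000433) and by 2.62 in SAT (adjusted p = 0.00259). MiR-221-3p was higher by 2.97 in VAT (adjusted p = 0.000287). For miR-145a-5p, the most abundant of them, VAT minus BAT was 0.03 (adjusted p = 0.935). Of 17 reported as promoters, all were tested, and against BAT 9 were higher and 4 lower in VAT, with 9 higher and 3 lower in SAT. They held miRNAs in both directions. MiR-26a-5p, the most abundant of them in both white depots, was higher by 2.25 in VAT (adjusted p = 0.000922), and for miR-378a-3p, the most abundant of them in BAT, VAT minus BAT was -2.32 (adjusted p = 0.00556). The VAT/BAT median was 1.68 for the promoters and 2.75 for the inhibitors, where all tested miRNAs had 0.40. The median of the inhibitors was that of miR-130b-3p. This miRNA was at the lowest value in all BAT libraries, so the size of that median depends on the constant that was added. The study also measured some miRNAs by qPCR in VAT and BAT. There, miR-221-3p and miR-30a-5p, the latter listed here among the promoters, changed in the opposite direction to its small RNA sequencing. Most of the miRNAs that it measured so went the same way in both methods. It found no significant correlation between the methods, probably, in its view, because few miRNAs were tested. MiR-128-3p, whose sequence holds the seed letters of miR-27 shifted by 1 base, did not pass, with VAT minus BAT at -0.60 (adjusted p = 0.421) and SAT minus BAT at -0.89 (adjusted p = 0.354), and its libraries overlapped.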

How the data were processed

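The data were small RNA libraries of 3 fat depots of HFD mice, 3 for each depot, which the study calls biological replicates. Reads were mapped by the authors to miRBase precursors (mm10 is named as the genome build; the aligner is not given in the sources used here), reads with several places were shared in proportion, counts were scaled by the total of usable reads, and a constant of 40 counts was added. The deposited values are log2 values whose lowest is log2 of 10, and how that relates to the added 40 is not stated. They were used unchanged. The read depth is stated only approximately per sample and not for each library, so no interval for counting error is given. The fold changes are on this offset scale, which understates changes of low miRNAs.

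The 343 of 1251 miRNAs that exceeded the lowest value in 3 or more of the 9 libraries were fitted per depot pair with limma 3.58.1 in R 4.3.3 (two-sided, Benjamini-Hochberg, threshold 0.05), since the study's unmoderated test per miRNA has few libraries to estimate a spread from. That test and the study's thresholds (unadjusted p under 0.05, fold change over 1.25) were alternatives, with other offsets, filters, scalings, a replicate block and each library left out. Exact permutation tests and figures used Python 3.11.15, numpy 2.4.6 and matplotlib 3.10.9. The fit and the permutation test were tested on simulated data. Sequences came from RefSeq on GRCm38.p6, in which 1001 of 1251 names had a mature entry, and gene overlaps from GENCODE M21. The members and the lists of marker and adipogenesis miRNAs were chosen with earlier results of these data known. Named were the 5 members, the other strands of their hairpins, miRNAs with the same seed, miR-128-3p, the 3 tested miRNAs most correlated with each member, and the most abundant of each list. MiR-130a-3p, miR-130b-3p, miR-221-3p, miR-224-5p, miR-30a-5p, miR-1a-3p, miR-451a and miR-196b-5p, and markers at the lowest value, were named after their values were seen.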

Additional observations from a re-analysis of the deposited data

How the results depend on the processing

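The 5 members kept the direction of their VAT/BAT and SAT/BAT differences under all alternatives, and for miR-24-3p and miR-27b-3p the VAT/BAT call held in all 17. The counts of members past the threshold depended on the processing. In VAT/BAT (4 of 5) 2 passed without a filter, and 2 to 5 with each library left out (187 to 236 of all 343). In SAT/BAT (4 of 5) 2 passed with the lowest value subtracted and 1 added (119 of 343), 2 relative to miR-191-5p (132), 2 without moderation (125) and 0 without a filter, where limma left unadjusted p under 0.05 for 4 of the 5, and 1 to 3 with each library left out (112 to 142). In VAT/SAT (1 of 5) 2 passed with a further 40 added (46 of 343), 2 at the study's thresholds with or without moderation, and 0 without a filter, relative to miR-191-5p, without moderation or without BAT 15, BAT 20 and VAT 20 (this and the unmoderated test at the study's thresholds were chosen after seeing the data), where 3, 1, 2 and 2 members had an unadjusted p under 0.05, and 0 to 1 with each library left out. Over all tested miRNAs the counts of 227, 139 and 55 fell to 128, 74 and 4 without a filter. In VAT/SAT they were 30 with all 9 libraries in a common fit, 13 without moderation, 2 relative to miR-191-5p, 122 at the study's thresholds, 98 at these without moderation, 5 without BAT 15, BAT 20 and VAT 20, and 0 to 49 with each library left out, with 0 without SAT 19.

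The VAT/SAT difference of miR-23a-3p turned to 0.14 relative to miR-191-5p (-0.17 to 0.045 with libraries left out), and that of miR-27a-3p to 0.15 (-0.20 to 0.15). With libraries left out, the VAT less BAT change of the within-library differences ranged from -0.53 to -0.061 for miR-27a-3p minus miR-27b-3p, from -0.18 to 0.21 for miR-23a-3p minus miR-27a-3p, from -0.54 to 0.23 for miR-23b-3p minus miR-27b-3p, and from 0.55 to 0.81 and 0.46 to 0.63 for miR-24-3p against its partners on chromosomes 8 and 13. The causes were not tested.

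The numbers 14 and 20 recur in SAT and VAT, and 20 also in BAT. Whether libraries of the same number came from the same mouse is not stated. Same-numbered libraries deviated from their depot means with a correlation of 0.05 on average (4 pairs, -0.14 to 0.27), and so few pairs cannot settle it. The main fit did not take the numbers as pairs. With the number as a replicate block over the 6 libraries of VAT/SAT, 1 member passed and the log2 fold change of miR-24-3p was 0.39 (adjusted p = 0.0534). In a blocked fit of all 9 libraries, 5 members passed in VAT/BAT, 4 in SAT/BAT and 1 in VAT/SAT, where 223, 183 and 30 of the 343 did.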
